A study of Arabidopsis thaliana with 8 samples.

Results

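The subject is how copper and iron deficiency combine in Arabidopsis rosette leaves: whether the lack of copper changes a messenger RNA by the same amount in leaves that also lack iron as in leaves that have it. All 8 libraries entered as a 2 by 2 design, with 2 libraries in each group. The interaction of a gene is its log2(FPKM + 1) in double deficiency less copper deficiency less iron deficiency plus control, where FPKM counts fragments per transcript length and sequencing depth. A positive value means that the difference of double deficiency from iron deficiency lies above that of copper deficiency from control. Genes were limited to those on chromosomes 1 to 5 that span 300 bp or more and exceed 0 FPKM in each of the 8 libraries, which left 19821 of 38093 gene entries. Of these, 17242 also had 1 FPKM or more in at least 2 libraries and were tested, and 2579 lower ones were not. The shortest locus inside the length limit that was tested, AT3G07675 of 302 bp, had an interaction of 0.09, and the longest one outside it, AT5G02575 of 290 bp, had 0.94. The lowest single value among tested genes was 0.00382 FPKM, in AT1G51820, whose interaction was 0.70; genes listed at 0 in any library lie outside.

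Copper and iron are cofactors of electron transport in chloroplasts and mitochondria and of enzymes that remove reactive oxygen, so a leaf short of either must reassign what it has. In Arabidopsis, copper shortage acts through the transcription factor SPL7, which binds GTAC motifs, induces copper transporters and the iron superoxide dismutase FSD1, and induces miR398, the microRNA that removes messages of the copper/zinc superoxide dismutases CSD1 and CSD2 and of their copper chaperone CCS. Iron shortage acts through a separate set of bHLH factors and IMA peptides, which induce ferric reductases and iron transporters and lower ferritin. FSD1 needs iron and the CSD enzymes need copper, so this exchange joins both metals.

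Double deficiency leaves came from Col-0 plants kept for 10 d in hydroponic medium without FeEDTA and without copper sulfate, to which 10 µM bathocuproine disulfonate, a copper chelator, had been added. Iron deficiency plants lacked FeEDTA alone and had 1 µM copper sulfate. Copper deficiency plants had FeEDTA, no copper sulfate and 10 µM of the chelator, so that removal of copper and presence of the chelator cannot be told apart. Control plants had both metals. All plants were wild type, had spent 12 d on soil and 10 d in complete hydroponic medium before the treatment, and were harvested 4 h after light onset; a stage of 20 d in the labels is at odds with these times. No label tells if both libraries of a group are from different cultures, so p-values measure only the spread between these libraries, which may be technical.

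Between 16842 and 18396 genes per library were at 1 FPKM or more. The number of reads is not stated; relative depth, read from the width of the deposited confidence bounds, ran between 0.565 and 1 of the deepest library, and between 0.98 and 1 in both double deficiency libraries and iron deficiency replicate 2. Chloroplast transcripts took 0.278% of the FPKM in copper deficiency replicate 2 and 5.83 to 11.2% in the other 7 libraries, and ribosomal RNA took 5.94% in iron deficiency replicate 1 and 0.076 to 2.68% in the others. The median interaction of all 19170 genes tested was 0.14, not 0, because the median of double against iron deficiency was 0.15 and that of copper deficiency against control 0.01. Median-ratio scaling brought the median interaction to 0.02 and quantile normalization to -0.02. Values below are therefore to be read against 0.14.

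Few genes passed the test for a departure from additive behaviour. Nearly all that did were higher in double deficiency than the single deficiencies add up to. With 2 libraries in each group, a gene that did not pass is not shown to be additive. With limma and Benjamini-Hochberg adjustment over all 19170 genes tested, 34 of the 17242 genes had an adjusted p under 0.05, and these are the called genes: 31 were positive and 3 negative. Over all genes tested, 0.589% were called, 0.396% positive and 0.193% negative; the other 79 of these 113 were listed at 0 in both libraries of at least 1 group and lie outside the limits. At an unadjusted p under 0.05, 11.6% of the 17242 genes were positive and 1.93% negative. The split of called genes was 20 positive and 5 negative after median-ratio scaling and 20 and 8 after quantile normalization. Blocking by replicate number gave 12 calls, all positive, of which 8 were among the 34, so none of the 3 negative genes remained. Blocking by the letter in the library titles gave fewer still, but the letter C stands for copper deficiency replicate 2 alone. Of the 8 fits that leave out 1 library, those without a double deficiency library gave the fewest calls. Such fits leave 1 library in a group, and why their counts differ was not tested. Without iron deficiency replicate 1 the count was 6, without its replicate 2 it was 8, without control replicate 1 it was 9 and without control replicate 2 it was 3, while leaving out copper deficiency replicate 1 or 2 gave 29 and 26. Other pseudocounts, filters and sets of genes fitted gave 11 to 116. No called gene changed sign in any of these fits, and none remained called in all 8.

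The copper effects of single genes without and with iron did not run together, whereas their iron effects without and with copper ran together. Across the 17242 genes, the difference of double from iron deficiency and that of copper deficiency from control, which share no library, had a Pearson correlation of -0.02 and a Spearman correlation of -0.03. The difference of double from copper deficiency and that of iron deficiency from control, which share none either, correlated at 0.84 and 0.75. These are descriptions across genes, which are not independent replicates. The SD across genes was 0.32 without iron and 0.24 with iron for the copper effects. For the iron effects it was 0.73 without copper and 0.67 with copper, and the median SE of the interaction was 0.23. Spread between libraries lowers a correlation more where effects are small, so the correlations of copper and iron effects cannot be compared directly. Of the 17242 genes, 141 were called for double against iron deficiency, 130 higher and 11 lower, where 1.14% of all genes tested were called, 0.939% higher and 0.198% lower. This split was 61 higher and 41 lower after median-ratio scaling and 85 and 86 after quantile normalization. The count was 4 and 3 without double deficiency replicates 1 and 2, 8 and 41 without iron deficiency replicates 1 and 2, and 50 without either control library. None of the 17242 was called for copper deficiency against control, where 0.183% of all genes tested were called, and 809 genes, or 4.69%, had an unadjusted p under 0.05 in limma, the only tool run; this count of calls was 7 without copper deficiency replicate 1 and 2 without replicate 2.

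**Figure D1:**
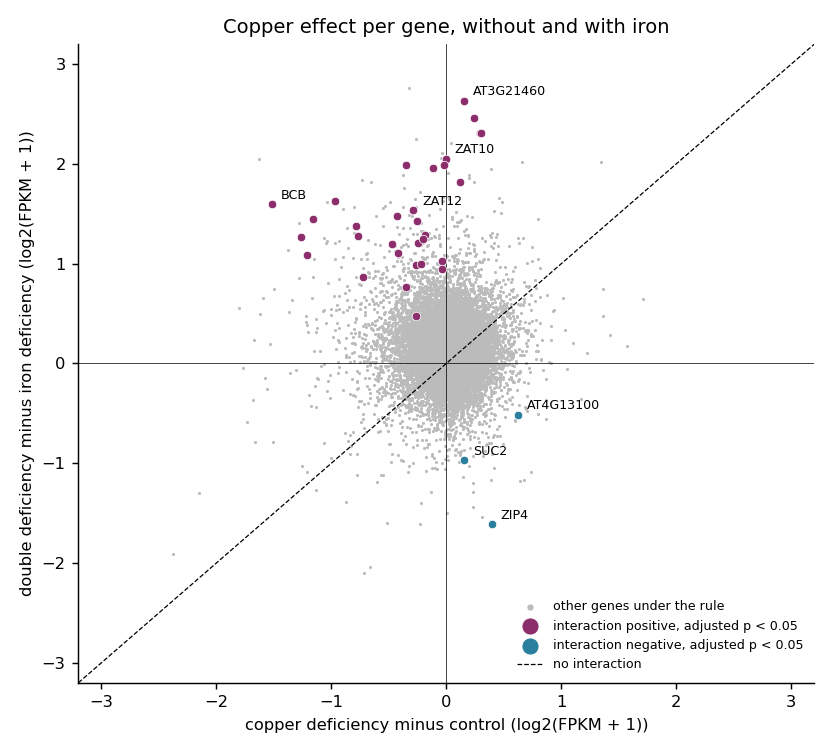
Copper effect of each gene without iron (vertical axis, double deficiency minus iron deficiency) and with iron (horizontal axis, copper deficiency minus control), both in log2(FPKM + 1) as means of 2 libraries, for the 17242 genes tested; 1 gene lies outside the plotted range. The dashed line marks equal effects; the 31 positive called genes lie above it and the 3 negative ones below it.

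The 31 positive genes are described next by the differences that make up the interaction, which share its libraries. In each of them the mean was higher in double than in iron deficiency, and 28 were called for that difference. Both double deficiency libraries lay above all 6 other libraries in 29 of them, against 33.8% of the 17242 genes. In 26 of the 31, the mean in copper deficiency was below that in controls, so that the copper effects had opposite signs, and the largest difference of copper deficiency from control in the positive direction was 0.30. The median of this difference was -0.26 over the 31, against 0.01 over all genes tested. The interaction subtracts this difference, so choosing positive genes favours low values of it, and in none of them was it called. The interaction of the 31 ran between 0.75 and 3.11 with a median of 1.90. For iron deficiency against control, 13 of the 31 were called, where 6142 of the 17242 genes were called. The median difference of the 31 there was -0.01, against 0.27 over all genes tested. For double against copper deficiency, 29 of the 31 were called, where 8264 of the 17242 genes were called. In 2 of the 3 negative genes both double deficiency libraries lay below all 6 others, against 2.72% of the 17242 genes. All 34 are protein coding, and all kept their sign on the linear FPKM scale.

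**Figure D2:**
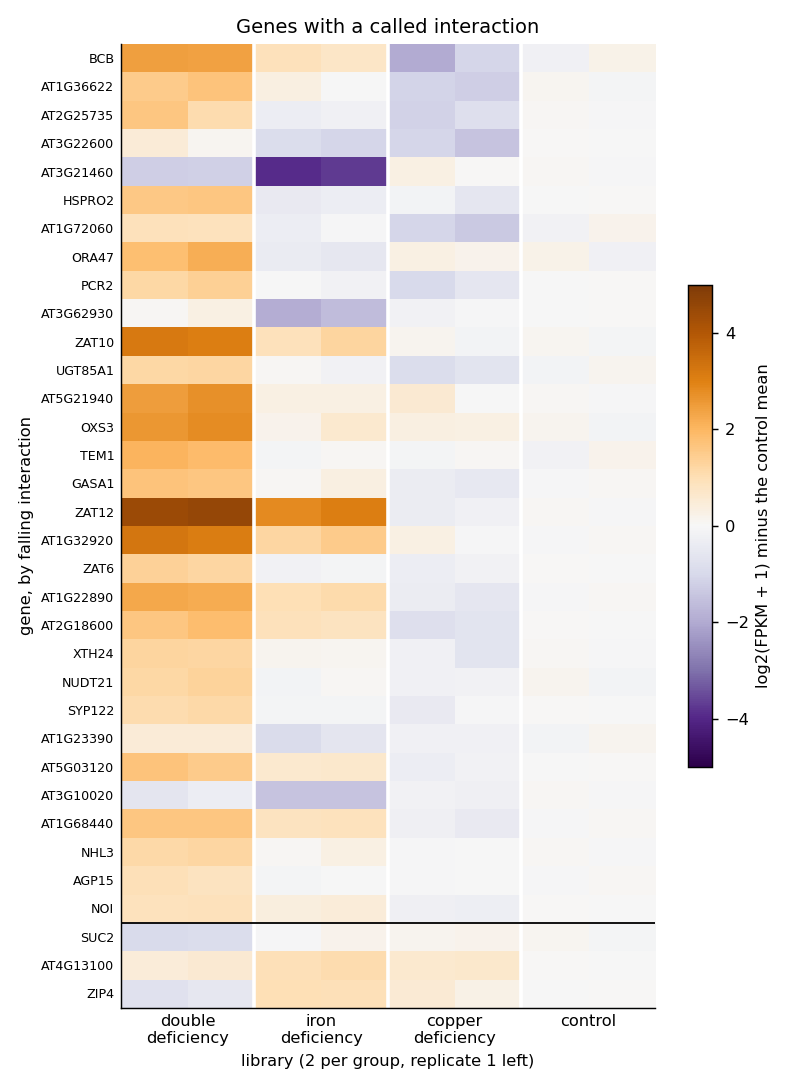
Difference of each library from the control mean in log2(FPKM + 1) for the 34 genes with a called interaction, ordered by falling interaction; each group has 2 libraries and the line parts positive from negative genes. The values run between -3.94 and 4.53, and the double deficiency columns are the highest in 29 of the 31 genes above the line.

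Genes of the reactive oxygen and general stress response stood among the called ones. ZAT12, a zinc-finger transcription factor of oxidative and high-light stress, had 75.3 and 81.2 FPKM in double deficiency, 24.4 and 28.4 in iron deficiency, 1.73 and 2.1 in copper deficiency and 2.72 and 2.4 in control leaves. Both double deficiency libraries were the highest, the iron deficiency libraries lay between, and copper deficiency and control libraries did not exceed 2.72 FPKM. Its interaction was 1.82 ± 0.19 (SE, adjusted p = 0.0148), with a copper effect of 1.54 without iron and -0.29 with iron. ZAT10, a related zinc-finger repressor also called STZ, had 45.2 and 41.4 FPKM in double deficiency, 8.44 and 11.1 in iron deficiency, 4.51 and 3.57 in copper deficiency and 4.41 and 3.7 in control leaves. Copper deficiency and control overlapped, and double deficiency was higher than iron deficiency by 2.05 on the log2 scale at an interaction of 2.06 ± 0.24 (SE, adjusted p = 0.028). ZAT6, another factor of this family, had 8.94 and 8.16 FPKM in double deficiency, 2.44 and 2.67 in iron deficiency, 2.12 and 2.48 in copper deficiency and 3.04 and 2.84 in control leaves. The other 6 libraries lay between 2.12 and 3.04 FPKM and the interaction was 1.68 ± 0.21 (SE, adjusted p = 0.0321). OXS3, a chromatin-associated factor of oxidative stress tolerance, had 19 and 21.5 FPKM in double deficiency, 2.71 and 3.95 in iron deficiency, 3.08 and 2.99 in copper deficiency and 2.58 and 2.01 in control leaves. Again only double deficiency stood apart (2.01 ± 0.26 (SE, adjusted p = 0.0421)).

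Of the list of reactive oxygen genes, which held ZAT10 and ZAT12, 18 of 20 were tested. These 2 were called, against 31 positive calls among the 17242 genes and 0.396% called positive over all 19170 genes tested. At an unadjusted p under 0.05, 5 of the 18 were positive and none negative, against 11.6% and 1.93% of the 17242 genes, shares that apply to each such count below. The list's median interaction was 0.31, against 0.14 over all genes tested. AOX1A, the mitochondrial alternative oxidase, had 409 and 454 FPKM in double deficiency, 287 and 331 in iron deficiency, 21.1 and 25 in copper deficiency and 26.4 and 25.6 in control leaves, and its interaction of 0.65 ± 0.17 (adjusted p = 0.209) did not pass the test. APX1, the cytosolic ascorbate peroxidase, was lower in both iron-starved groups, with 133 and 124 FPKM in double deficiency, 67.6 and 93 in iron deficiency, 459 and 394 in copper deficiency and 406 and 414 in control leaves. Its interaction was 0.63 ± 0.23 (adjusted p = 0.322).

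BCB is a membrane-anchored blue copper protein of the phytocyanin family known to respond to stress and wounding. At the pseudocount of 1, it had the highest positive interaction of the called genes. Its libraries held 209 and 199 FPKM in double deficiency, 71.9 and 62.3 in iron deficiency, 8.77 and 17.3 in copper deficiency and 32.3 and 43.1 in control leaves. It was lowest in copper deficiency, where replicate 1 held 8.77 FPKM, and highest in double deficiency, and no group overlapped another. The interaction was 3.11 ± 0.42 (SE, adjusted p = 0.0438), made of a copper effect of 1.59 without iron and -1.52 with iron; neither of these was called. It remained called in 5 of 19 alternatives.

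Several further genes of the 10 highest followed the same form, with copper deficiency below control and double deficiency above iron deficiency. AT3G22600, annotated as a lipid-transfer protein, had 9.83 and 7.48 FPKM in double deficiency, 3.26 and 2.73 in iron deficiency, 2.67 and 1.87 in copper deficiency and 7.03 and 6.62 in control leaves. Its double deficiency libraries were only just above control, and copper deficiency and iron deficiency were both low (2.53 ± 0.27 (SE, adjusted p = 0.0198)). AT1G72060, annotated as a serine-type endopeptidase inhibitor, had 16.5 and 16.3 FPKM in double deficiency, 6.4 and 8.09 in iron deficiency, 3.41 and 2.74 in copper deficiency and 7.27 and 9.69 in control leaves. The interaction was 2.30 ± 0.26 (SE, adjusted p = 0.021). PCR2, named PLANT CADMIUM RESISTANCE 2, had 7.19 and 8.39 FPKM in double deficiency, 2.58 and 2.21 in iron deficiency, 0.785 and 1.45 in copper deficiency and 2.55 and 2.64 in control leaves. Iron deficiency and control overlapped, copper deficiency was lowest, and the interaction was 2.16 ± 0.29 (SE, adjusted p = 0.0429). AT1G36622 (2.61 ± 0.28 (SE, adjusted p = 0.02)) and AT2G25735 (2.59 ± 0.35 (SE, adjusted p = 0.0467)), both annotated as uncharacterized proteins, lay between 4.32 and 8.72 FPKM in double deficiency and between 0.138 and 0.450 FPKM in copper deficiency. The latter values lie below the pseudocount of 1, so the size of these interactions depends on it. With a pseudocount of 0.1 they were 4.02 and 4.38, above BCB at 3.19. With a pseudocount of 5 they were 1.22 and 1.08, below BCB at 2.81.

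HSPRO2 and ORA47 were the remaining named genes among the 10 highest, beside the glutaredoxins. HSPRO2, a gene of basal defence, had 51.1 and 52.4 FPKM in double deficiency, 11.7 and 12.9 in iron deficiency, 14.7 and 10.7 in copper deficiency and 16.2 and 16.5 in control leaves. The 6 libraries outside double deficiency lay between 10.7 and 16.5 FPKM, and the interaction of 2.34 ± 0.21 (SE, adjusted p = 0.00789) held in 15 of 19 alternatives. ORA47, an AP2-type transcription factor of the jasmonate response, had 12.7 and 16.4 FPKM in double deficiency, 1.93 and 1.68 in iron deficiency, 3.81 and 3.36 in copper deficiency and 3.52 and 2.34 in control leaves. Its interaction came to 2.22 ± 0.29 (SE, adjusted p = 0.0412). GASA1, a gibberellin-regulated secreted peptide, was abundant, with 811 and 773 FPKM in double deficiency, 259 and 312 in iron deficiency, 194 and 174 in copper deficiency and 236 and 261 in control leaves. Its interaction of 1.90 ± 0.17 (SE, adjusted p = 0.00832) also held in 15 of 19. TEM1, a repressor of flowering, had 37.9 and 33 FPKM in double deficiency, 7.75 and 8.67 in iron deficiency, 7.71 and 8.61 in copper deficiency and 7.22 and 9.43 in control leaves, so that the other 3 groups overlapped and double deficiency stood alone (2.00 ± 0.22 (SE, adjusted p = 0.0199)).

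The other positive genes were called at interactions between 0.75 and 2.05. They include UGT85A1, a glycosyltransferase for zeatin (2.05 ± 0.22 (adjusted p = 0.0199)), XTH24, a cell wall xyloglucan enzyme also listed as the senescence gene SEN4 (1.53 ± 0.20 (adjusted p = 0.0427)), SYP122, a syntaxin of the plasma membrane (1.45 ± 0.20 (adjusted p = 0.0471)), NHL3, a defence gene (1.07 ± 0.15 (adjusted p = 0.0453)), NOI, of the RIN4 family (0.75 ± 0.10 (adjusted p = 0.0486)), and AGP15, an arabinogalactan protein (0.98 ± 0.13 (adjusted p = 0.0398)). AT1G22890, annotated as uncharacterized, had 123 and 117 FPKM in double deficiency, 49 and 54.4 in iron deficiency, 18.4 and 16.2 in copper deficiency and 23.5 and 25.3 in control leaves and was called in 16 of 19 alternatives (1.67 ± 0.15 (adjusted p = 0.00688)). XTH24 had 323 and 315 FPKM in double deficiency, 150.0 and 146 in iron deficiency, 117 and 86.3 in copper deficiency and 139 and 131 in control leaves. Both double deficiency libraries lay above all others. AT3G10020 was one of 2 positive genes whose double deficiency libraries were not the highest: it had 31.6 and 38.1 FPKM in double deficiency, 17 and 16.8 in iron deficiency, 43 and 40.3 in copper deficiency and 51.1 and 46.1 in control leaves. This gave an interaction of 1.21 ± 0.16 (adjusted p = 0.044), called in 2 of 19 alternatives. Of the other positive genes above, ZAT12 was called in 13, TEM1 and AT3G22600 in 11, and UGT85A1 and AT1G72060 in 10. ZAT10 and AT1G36622 were called in 9, ZAT6 in 7 and OXS3 in 6. ORA47, PCR2, SYP122, NHL3 and AGP15 were called in 5, XTH24 in 4, NOI in 1, and AT2G25735 in 3 of 18.

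The other exception was a glutaredoxin. Glutaredoxins reduce disulfides with glutathione, and the CC-type family, named for a pair of cysteines in its active site, occurs in land plants. AT3G21460, annotated as a glutaredoxin family protein, had 7.59 and 7.79 FPKM in double deficiency, 0.302 and 0.507 in iron deficiency, 23.5 and 19.2 in copper deficiency and 19.6 and 18.4 in control leaves. It was highest with iron present, irrespective of copper, under 1 FPKM in iron deficiency, and intermediate in double deficiency. Its interaction of 2.48 ± 0.21 (SE, adjusted p = 0.00544) was called in 17 of 19 alternatives, failing without double deficiency replicate 2 (adjusted p = 0.0512) and with the letter A, B or C of the library titles as a block (0.0872); its adjusted p ran up to 0.0872 over the 19. AT3G62930, annotated as a thioredoxin superfamily protein and a member of the same family, had 5.18 and 6.4 FPKM in double deficiency, 0.571 and 0.937 in iron deficiency, 4.29 and 4.85 in copper deficiency and 4.87 and 5.17 in control leaves. Iron deficiency alone was low, the other 3 groups lay within 4.29 to 6.4 FPKM, and the interaction was 2.07 ± 0.25 (SE, adjusted p = 0.032). AT3G62930 was called in 7 of 19 alternatives.

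These 2 genes led to a list of 21 loci of the CC-type family, drawn up after their values were seen and therefore given without a test of the list. Of 17 tested members, the 2 above were called, 14 lay above the all-gene median of 0.14, 8 had a positive interaction at an unadjusted p under 0.05 and none a negative one, and the median was 1.26. AT4G15670 had 8.98 and 9.39 FPKM in double deficiency, 2.07 and 2.6 in iron deficiency, 1.59 and 2.7 in copper deficiency and 2.31 and 4.67 in control leaves and AT4G15660 had 12.3 and 6.61 FPKM in double deficiency, 2.1 and 1.84 in iron deficiency, 2.85 and 3.86 in copper deficiency and 3.51 and 5.92 in control leaves. In both, double deficiency lay above the other groups; their interactions of 2.1 ± 0.42 (adjusted p = 0.139) and 2.13 ± 0.46 (adjusted p = 0.16) were not called. AT4G15660, AT4G15670, AT4G15680, AT4G15690 and AT4G15700 are neighbours of similar sequence, between which reads can be split, so their values are uncertain. AT5G18600, the most abundant member tested in iron-starved leaves, had 46.1 and 46.1 FPKM in double deficiency, 51.7 and 66.1 in iron deficiency, 58.1 and 88.2 in copper deficiency and 74.5 and 73.5 in control leaves. The interaction stood at -0.29 ± 0.29 (adjusted p = 0.699).

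Among the 3 negative genes, the zinc transporter gene ZIP4 had the strongest interaction. ZIP4 (chr1:3665087-3667139, minus strand) encodes a plasma membrane importer of the ZIP family and is a marker of zinc shortage, induced by bZIP19 and bZIP23 through a palindromic element. The 250 bases before its annotated gene start, read from the RefSeq TAIR10.1 genome at chr1:3667140-3667389, minus strand, are shown because they hold the core of that element; capitals mark TGTCGACA, 39 bases before the start, CGCGT (read on the opposite strand) and TTGACT:
ZIP4 promoter: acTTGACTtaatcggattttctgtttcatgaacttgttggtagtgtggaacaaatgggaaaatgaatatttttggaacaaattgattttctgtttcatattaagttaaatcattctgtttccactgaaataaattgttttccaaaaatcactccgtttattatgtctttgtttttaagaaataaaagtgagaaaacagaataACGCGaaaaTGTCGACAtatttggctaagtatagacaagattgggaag
TGTCGACA, a palindrome that both strands share, stood in 0.28% of the 16811 promoters of tested protein-coding genes, and in none of the 31 promoters of the positive called genes.

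ZIP4 had 2.64 and 3.15 FPKM in double deficiency, 11 and 10.8 in iron deficiency, 7.61 and 6.22 in copper deficiency and 4.85 and 5.16 in control leaves. Iron deficiency was the highest group, copper deficiency stood above control, and double deficiency was below every other library. The interaction was -2.01 ± 0.20 (SE, adjusted p = 0.0148), from a copper effect of -1.61 without iron and 0.39 with iron. It was called in 11 of 19 alternatives, of which 2 of the 8 that leave out a library. Other zinc transporters lay the same way without passing the test. HMA2, a zinc exporter of the vasculature, had 11.2 and 10.0 FPKM in double deficiency, 18.6 and 22.2 in iron deficiency, 10.5 and 11.2 in copper deficiency and 12.2 and 10.5 in control leaves. Iron deficiency was high and the other 3 groups overlapped (-0.82 ± 0.19 (adjusted p = 0.179)). IRT3, a zinc and iron importer, had 2.87 and 3.3 FPKM in double deficiency, 5.93 and 6.75 in iron deficiency, 8.55 and 5.34 in copper deficiency and 6.18 and 5.34 in control leaves. Here the interaction was -1.05 ± 0.31 (adjusted p = 0.248). ZIP5 had 2.97 and 2.92 FPKM in double deficiency, 4.2 and 7.31 in iron deficiency, 3.14 and 4.0 in copper deficiency and 2.44 and 3.3 in control leaves. The interaction term was -0.98 ± 0.37 (adjusted p = 0.336). HMA4, which loads zinc into the xylem, had 5.71 and 4.03 FPKM in double deficiency, 7.56 and 8.23 in iron deficiency, 3.6 and 4.85 in copper deficiency and 4.25 and 3.83 in control leaves. Its interaction amounted to -0.66 ± 0.28 (adjusted p = 0.378).

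Of 23 genes on the zinc and manganese list, 15 were tested, ZIP4 alone was called, 4 had a negative interaction at an unadjusted p under 0.05 and none a positive one. Its median was 0.05, against 0.14 over all genes, and the metallothioneins and vacuolar transporters of the list did not share this sign in every case: MT2A, a metallothionein that binds copper and zinc, had 745 and 701 FPKM in double deficiency, 640.0 and 654 in iron deficiency, 372 and 384 in copper deficiency and 426 and 377 in control leaves. The interaction was 0.24 ± 0.14 (adjusted p = 0.488). MTP1, which stores zinc in vacuoles, had 0.25 ± 0.22 (adjusted p = 0.645), and MTP11, a manganese transporter, 0.05 ± 0.17 (adjusted p = 0.929). ZIP1 was listed at 0 in both double deficiency libraries and in 1 library of each other group, so no difference is given.

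**Figure D3:**
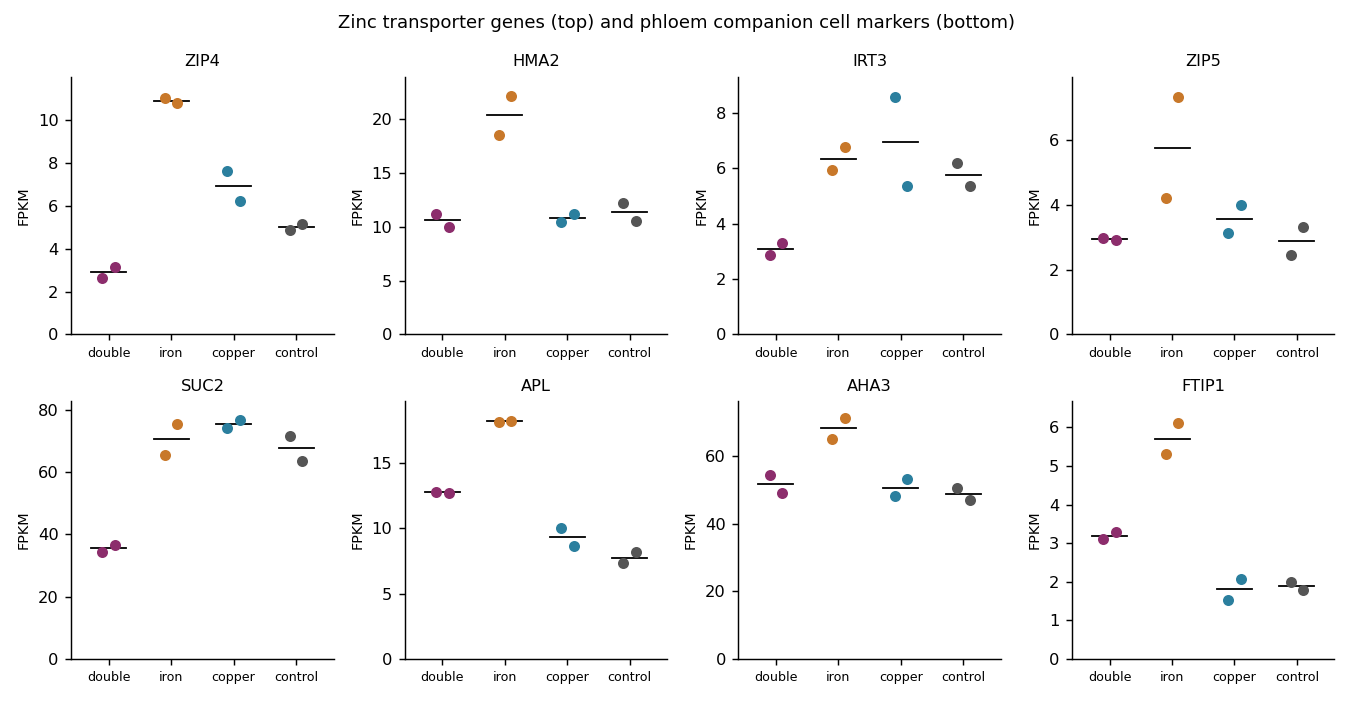
FPKM of 4 zinc transporter genes (top row) and 4 phloem companion cell markers (bottom row) in each library; points are the 2 libraries of a group, bars their mean, and every axis starts at 0. ZIP4 was lowest in double deficiency (2.64 and 3.15 FPKM) and highest in iron deficiency, and SUC2 stood at 34.4 and 36.5 FPKM in double deficiency, below all other libraries.

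SUC2, the sucrose-proton symporter that loads the phloem in companion cells, was the second negative gene. It had 34.4 and 36.5 FPKM in double deficiency, 65.5 and 75.5 in iron deficiency, 74 and 76.6 in copper deficiency and 71.7 and 63.6 in control leaves. Both double deficiency libraries were the lowest, and iron deficiency overlapped with copper deficiency and with control; the interaction was -1.12 ± 0.15 (SE, adjusted p = 0.0429), with a copper effect of -0.97 without iron. SUC2 was called in 5 of 19 alternatives and lost its call without each of the 8 libraries in turn. Of the 6 companion cell markers, all tested, SUC2 was the only call and 4 had a negative interaction at an unadjusted p under 0.05; the median was -0.54. APL, a phloem transcription factor, had 12.8 and 12.7 FPKM in double deficiency, 18.2 and 18.3 in iron deficiency, 10.0 and 8.65 in copper deficiency and 7.34 and 8.16 in control leaves, AHA3, the companion cell proton pump, had 54.3 and 49 FPKM in double deficiency, 65.1 and 71.3 in iron deficiency, 48.2 and 53.1 in copper deficiency and 50.6 and 46.9 in control leaves, and FTIP1, a companion cell transport protein, had 3.11 and 3.28 FPKM in double deficiency, 5.3 and 6.12 in iron deficiency, 1.53 and 2.07 in copper deficiency and 1.99 and 1.78 in control leaves. In these 3, iron deficiency was the highest group and double deficiency was near or above control, so they did not share the level pattern of SUC2. Their interactions were -0.72 ± 0.16 (adjusted p = 0.17), -0.45 ± 0.14 (adjusted p = 0.279) and -0.63 ± 0.24 (adjusted p = 0.347). Summed over the 6 markers, FPKM was 163 and 153 in double deficiency, 197 and 223 in iron deficiency, 193 and 202 in copper deficiency, and 190.1 and 168 in control leaves. In bulk leaves, fewer cells of a type and less RNA per cell cannot be told apart.

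The remaining negative gene, AT4G13100, annotated as a RING/U-box protein, had 19.5 and 21.2 FPKM in double deficiency, 28.3 and 30.4 in iron deficiency, 21.8 and 22.7 in copper deficiency and 14.5 and 13.8 in control leaves. Either single deficiency stood above control, and double deficiency did not exceed the single ones (-1.13 ± 0.13 (SE, adjusted p = 0.0272)); its copper effect was -0.51 without iron and 0.62 with iron. It was called in 9 of 19 alternatives and, like SUC2, lost its call without each of the 8 libraries in turn. The next 7 genes with a negative interaction by p, none of them called, were AT1G70985 (-1.05 ± 0.17 (adjusted p = 0.078)), MIPS1, a synthase of inositol (-0.93 ± 0.15 (adjusted p = 0.0871)), GLU1, the ferredoxin-dependent glutamate synthase (-0.77 ± 0.13 (adjusted p = 0.0972)), AST56, a sulfate transporter family gene (-0.91 ± 0.16 (adjusted p = 0.105)), AT1G67870 (-0.97 ± 0.18 (adjusted p = 0.12)), AT1G63420 (-0.80 ± 0.15 (adjusted p = 0.121)) and TGG1, a guard cell myrosinase (-0.83 ± 0.16 (adjusted p = 0.135)). MIPS1 had 95.9 and 113 FPKM in double deficiency, 189 and 209 in iron deficiency, 224 and 208 in copper deficiency and 217 and 213 in control leaves, and GLU1 had 186 and 204 FPKM in double deficiency, 309 and 317 in iron deficiency, 252 and 259.5 in copper deficiency and 254 and 229 in control leaves. In both, double deficiency was the lowest group and overlapped with no other group.

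The superoxide dismutases, where copper and iron supply meet, held no called interaction. FSD1, the iron enzyme, had 0.327 and 0.894 FPKM in double deficiency, 1.83 and 0.46 in iron deficiency, 734 and 711 in copper deficiency and 400.1 and 256 in control leaves. With iron, copper deficiency lay above control in both libraries; without iron, all 4 libraries were under 2 FPKM. Its interaction was -1.53 ± 0.51 (SE, adjusted p = 0.29), on a scale that understates changes of such low values. CSD2, the plastid copper/zinc enzyme, had 711 and 738 FPKM in double deficiency, 668 and 789 in iron deficiency, 322 and 355 in copper deficiency and 595 and 847 in control leaves. Copper deficiency was the lowest group and the 4 iron-starved libraries overlapped with control (1.06 ± 0.26 (SE, adjusted p = 0.192)). CSD1, the cytosolic enzyme, had 688 and 599 FPKM in double deficiency, 513 and 548 in iron deficiency, 301 and 349 in copper deficiency and 449 and 510.4 in control leaves. Its interaction came to 0.84 ± 0.18 (SE, adjusted p = 0.156). CCS, their chaperone, had 184 and 181 FPKM in double deficiency, 163 and 187 in iron deficiency, 57 and 71 in copper deficiency and 99.7 and 133 in control leaves. This gave an interaction of 0.91 ± 0.24 (SE, adjusted p = 0.212). For these 3, the copper effect was -1.07, -0.56 and -0.85 with iron (CSD2, CSD1, CCS in turn) and 0.00, 0.27 and 0.06 without iron. Of 8 dismutase genes tested none was called, 3 were positive and 2 negative at an unadjusted p under 0.05, and the median was 0.13. FSD2, a plastid iron enzyme, was the second negative one, with 15 and 16.6 FPKM in double deficiency, 15.5 and 16 in iron deficiency, 15.2 and 13.1 in copper deficiency and 10.5 and 10.2 in control leaves. The interaction stood at -0.41 ± 0.16 (adjusted p = 0.348).

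**Figure D4:**
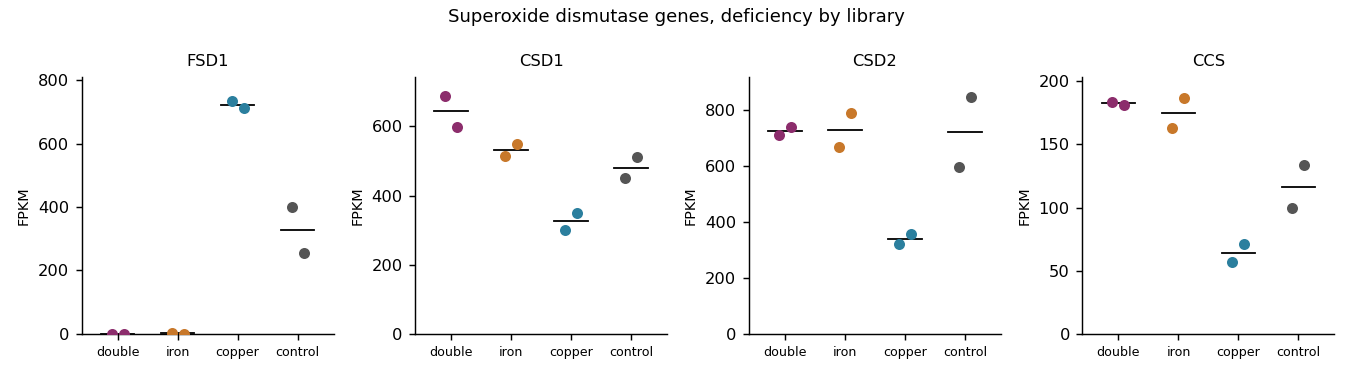
FPKM of FSD1, CSD1, CSD2 and CCS in each library; points are the 2 libraries of a group, bars their mean, and axes start at 0. FSD1 was under 2 FPKM in all iron-starved libraries and at 734 and 711 FPKM in copper deficiency, while CSD1, CSD2 and CCS were lowest in copper deficiency.

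The microRNA that links these genes is shown with its sites, as the pattern of CSD1, CSD2 and CCS is read against it; its own level is not analysed here. Mature sequences were read from RefSeq TAIR10.1, with bases 2 to 8, the seed, in capitals:
miR398a (chr2:1041012-1041032, plus strand): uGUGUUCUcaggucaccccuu
miR398b (chr5:4691107-4691127, plus strand): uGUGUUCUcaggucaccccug
miR398c (chr5:4694778-4694798, plus strand): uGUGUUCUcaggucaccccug
All 3 share the seed GUGUUCU, and miR398b and miR398c are identical. The best ungapped match of miR398b in the spliced transcripts of each gene is given in the direction of the transcript, with capitals for bases that pair by Watson-Crick rules with the microRNA:
CSD1 (chr1:2827177-2827685, plus strand, across an intron): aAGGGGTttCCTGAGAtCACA
CSD2 (chr2:12015572-12015592, plus strand): tgcGGGTGACCTGgGAAacat
CCS (chr1:4267521-4267541, minus strand): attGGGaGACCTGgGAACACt
Of 21 bases, 17 paired in CSD1, 13 in CSD2 and 15 in CCS, with 0, 3 and 1 further G-U pairs. These matches describe the sequences and were not tested for cleavage.

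The promoter of FSD1 is shown for its copper-response motif. The 250 bases before its gene start (chr4:12887012-12887261, minus strand) hold a single GTAC, the core that SPL7 binds, in capitals:
FSD1 promoter: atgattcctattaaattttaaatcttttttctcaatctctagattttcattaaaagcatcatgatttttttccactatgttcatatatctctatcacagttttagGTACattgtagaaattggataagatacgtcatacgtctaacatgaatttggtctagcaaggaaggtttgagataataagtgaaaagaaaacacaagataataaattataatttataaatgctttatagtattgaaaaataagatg
GTAC is its own reverse complement and stood in 34.7% of the 16811 promoters of this length, and in 11 of 31 (35.5%) of those of the positive called genes. The same window held it in CSD1, 7 and 11 bases before the start, and in CCS, 211 bases before it, but not in CSD2.

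Of the other copper genes, BCB was the only call. Among 10 tested of 18 genes on the copper response list, 1 was positive and 2 negative at an unadjusted p under 0.05, with a median of -0.06. CCH, a copper chaperone, had 137 and 137 FPKM in double deficiency, 159.5 and 167 in iron deficiency, 203 and 275 in copper deficiency and 188 and 183 in control leaves. Copper deficiency was the highest group and the interaction was -0.60 ± 0.20 (adjusted p = 0.295). COPT2, a copper importer induced by copper shortage, had 10.4 and 12.7 FPKM in double deficiency, 5.43 and 8.71 in iron deficiency, 5.11 and 6.22 in copper deficiency and 4.55 and 2.48 in control leaves. Libraries without copper lay above those with copper in both iron backgrounds and its interaction was 0.07 ± 0.41 (adjusted p = 0.965). YSL2, a metal-nicotianamine transporter, stayed under 3 FPKM in all libraries (-0.40 ± 0.46 (adjusted p = 0.739)). SPL7 itself had 10.4 and 9.23 FPKM in double deficiency, 11.1 and 12.6 in iron deficiency, 4.82 and 6.08 in copper deficiency and 6.02 and 5.42 in control leaves. Here the interaction was -0.18 ± 0.21 (adjusted p = 0.748). HMA5, a copper exporter, had 6.25 and 6.52 FPKM in double deficiency, 7.32 and 8.97 in iron deficiency, 0.378 and 0.465 in copper deficiency and 0.33 and 0.509 in control leaves. The interaction term was -0.31 ± 0.25 (adjusted p = 0.622). Both were higher in the 4 iron-starved libraries than in the 4 others.

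The lists of copper protein and copper delivery genes, which do not include BCB, held no call. Of 13 copper protein genes tested of 18, 4 were positive at an unadjusted p under 0.05, which were CSD1, CSD2, CCS and COX11 (0.38 ± 0.15 (adjusted p = 0.354)), an assembly factor of cytochrome oxidase; the median was 0.07. The plastocyanin genes PETE1 (355 and 339 FPKM in double deficiency, 302 and 358 in iron deficiency, 458 and 439 in copper deficiency and 449 and 445 in control leaves) and PETE2 (1221 and 1319.5 FPKM in double deficiency, 1127 and 1337 in iron deficiency, 3334 and 4289 in copper deficiency and 3336 and 3603 in control leaves) had interactions of 0.07 ± 0.15 (adjusted p = 0.868) and -0.08 ± 0.24 (adjusted p = 0.918). Of 10 delivery genes tested of 12, COPT5, a vacuolar copper exporter, was the only one under an unadjusted p of 0.05 (0.48 ± 0.19 (adjusted p = 0.36)); the median was 0.03. PAA2, the thylakoid copper ATPase, had -0.39 ± 0.17 (adjusted p = 0.384).

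Genes of the iron response held no called interaction. Of 25 genes on the leaf iron response list, 20 were tested and none had an unadjusted p under 0.05; the median was -0.03. BHLH39, a transcription factor of iron uptake, had 385 and 402 FPKM in double deficiency, 346 and 375 in iron deficiency, 0.338 and 0.118 in copper deficiency and 0.174 and 0.151 in control leaves. It was high in all 4 iron-starved libraries and under 1 FPKM in the 4 others, with an interaction of 0.05 ± 0.16 (adjusted p = 0.916). BHLH100, its homologue, had 553 and 584 FPKM in double deficiency, 631 and 638 in iron deficiency, 0.269 and 2.13 in copper deficiency and 0.128 and 0.963 in control leaves. Its interaction amounted to -0.58 ± 0.62 (adjusted p = 0.718). IMA2, an iron-signalling peptide gene, had 1043 and 967 FPKM in double deficiency, 799.5 and 843 in iron deficiency, 0.927 and 3.0 in copper deficiency and 1.24 and 1.05 in control leaves. The interaction was -0.09 ± 0.44 (adjusted p = 0.956). OPT3, a phloem iron transporter, had 437 and 411 FPKM in double deficiency, 561 and 581 in iron deficiency, 48.4 and 81.6 in copper deficiency and 74.1 and 65.4 in control leaves. Double deficiency lay below iron deficiency in both libraries, but the interaction of -0.28 ± 0.32 (adjusted p = 0.739) was not called. BTS, a ubiquitin ligase that limits the iron response, had 238 and 215 FPKM in double deficiency, 316 and 316 in iron deficiency, 15 and 34.9 in copper deficiency and 25.6 and 16.7 in control leaves, and FRO3, a mitochondrial ferric reductase, had 247 and 249.9 FPKM in double deficiency, 244 and 253 in iron deficiency, 6.6 and 14.6 in copper deficiency and 9.18 and 8.57 in control leaves, with interactions of -0.62 ± 0.53 (adjusted p = 0.641) and -0.14 ± 0.43 (adjusted p = 0.916). NRAMP4, which releases vacuolar iron, had -0.25 ± 0.21 (adjusted p = 0.634). For genes near 0 FPKM with iron, the SE of up to 0.62 among these limits what could be called.

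BHLH38, IMA1 and IRT1 fail the limit because they are listed at 0 in a library. BHLH38 had 703 and 730.1 FPKM in double deficiency, 626 and 678 in iron deficiency, 0 and 0 in copper deficiency and 0 and 0.914 in control leaves, IMA1 had 682 and 704 FPKM in double deficiency, 594 and 634 in iron deficiency, 0 and 3.55 in copper deficiency and 3.8 and 1.45 in control leaves, and IRT1, the root iron importer, had 5.49 and 3.73 FPKM in double deficiency, 9.89 and 8.53 in iron deficiency, 0.265 and 0 in copper deficiency and 0.33 and 0.165 in control leaves. None of the 3 had an adjusted p under 0.05. The root-type uptake list had the lowest median of the 31 pathway lists, which leave out the cell type markers, -0.32, over only 4 of 12 genes. FRO2, the ferric reductase of root uptake, had 9.33 and 10.1 FPKM in double deficiency, 14.7 and 15.2 in iron deficiency, 0.466 and 0.916 in copper deficiency and 0.626 and 0.654 in control leaves. Iron deficiency was highest, double deficiency lay below it in both libraries, and the interaction was -0.61 ± 0.24 (adjusted p = 0.359). FIT, its regulator, had 0.85 and 0.856 FPKM in double deficiency, 1.39 and 1.92 in iron deficiency, 1.39 and 1.31 in copper deficiency and 1.64 and 1.29 in control leaves. Its interaction came to -0.45 ± 0.29 (adjusted p = 0.532). BTSL2, a ubiquitin ligase, had -0.19 ± 0.29 (adjusted p = 0.811) and AHA2, a proton pump, 0.09 ± 0.18 (adjusted p = 0.869). Of 13 tested genes for iron storage and sufficiency of 17, none was called; FER1, the main leaf ferritin, had 8.64 and 7.82 FPKM in double deficiency, 6.36 and 7.87 in iron deficiency, 75.7 and 54.3 in copper deficiency and 92.4 and 59.3 in control leaves. This gave an interaction of 0.39 ± 0.35 (adjusted p = 0.656). NEET, an iron-sulfur protein, was at 0.247 to 1.08 FPKM in the iron-starved libraries and 129.7 to 272 FPKM in the others (0.50 ± 0.54 (adjusted p = 0.723)). The median of this list was 0.11. ENH1 (0.77 ± 0.38 (adjusted p = 0.434)), YSL3 (-0.54 ± 0.31 (adjusted p = 0.493)) and NAS3, a nicotianamine synthase (0.68 ± 0.40 (adjusted p = 0.502)), followed FSD2 by p.

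The ethylene list had the highest median interaction of the 31 pathway lists, among which the glutaredoxins are not counted, 0.77 against 0.14 over all genes. Of 17 genes 14 were tested, none was called, and 8 were positive and none negative at an unadjusted p under 0.05. ERF2, an ethylene response factor, had 20.3 and 18.7 FPKM in double deficiency, 7.46 and 7.19 in iron deficiency, 5.87 and 8.02 in copper deficiency and 7.67 and 9.18 in control leaves. Both double deficiency libraries lay above the other 6, which ran between 5.87 and 9.18 FPKM (1.55 ± 0.23 (adjusted p = 0.0622)). ERF5 had 8.99 and 6.9 FPKM in double deficiency, 2.22 and 1.79 in iron deficiency, 1.21 and 2.06 in copper deficiency and 2.13 and 2.64 in control leaves and ERF6 had 7.48 and 6.58 FPKM in double deficiency, 1.6 and 1.52 in iron deficiency, 1.8 and 1.37 in copper deficiency and 1.23 and 1.87 in control leaves, with interactions of 1.94 ± 0.33 (adjusted p = 0.091) and 1.62 ± 0.28 (adjusted p = 0.0975). ERF104 had 19.8 and 12.1 FPKM in double deficiency, 3.02 and 3.95 in iron deficiency, 4.68 and 3.01 in copper deficiency and 3.24 and 3.09 in control leaves. The interaction stood at 1.69 ± 0.39 (adjusted p = 0.174). The synthases of the ethylene precursor ACS2 (1.33 ± 0.37 (adjusted p = 0.23)) and ACS6 (1.07 ± 0.30 (adjusted p = 0.241)) were in the same direction, whereas the receptor gene ERS1 (-0.15 ± 0.17 (adjusted p = 0.73)) and the F-box genes EBF1 (-0.02 ± 0.17 (adjusted p = 0.972)) and EBF2 (0.03 ± 0.23 (adjusted p = 0.967)), which are targets and brakes of ethylene signalling, had interactions near 0. For double against iron deficiency, 4 of the 14 were called, all higher. Of the 17242 genes 130 were called higher, and over all genes tested 0.939%.

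Salicylate defence, heat and senescence genes had the next higher medians. For salicylate defence the median was 0.45 over 17 of 19 genes, none called and 3 positive at an unadjusted p under 0.05; its median copper effect was -0.10 without iron and -0.53 with iron. PR1, a secreted defence protein, had 7.83 and 2.59 FPKM in double deficiency, 1.93 and 2.27 in iron deficiency, 19.8 and 18.7 in copper deficiency and 54.4 and 36.3 in control leaves. Copper deficiency was below control in both libraries, both iron-starved groups were lower still, and double deficiency lay above iron deficiency in both libraries (2.03 ± 0.58 (adjusted p = 0.242)). PR2 (0.69 ± 0.25 (adjusted p = 0.325)), PR5 (0.87 ± 0.37 (adjusted p = 0.381)) and SAG101 (0.74 ± 0.23 (adjusted p = 0.267)) were next by p. Heat and protein folding had a median of 0.38 over 9 of 12 genes, with PDIL1-1, a protein disulfide isomerase (0.58 ± 0.12 (adjusted p = 0.155)), HSFB2A (0.85 ± 0.25 (adjusted p = 0.25)) and HSP90.1 (0.62 ± 0.26 (adjusted p = 0.377)) first. Senescence had 0.38 over 9 of 12 genes, with XTH24 as its only call and SAG13 next but one (2.51 ± 0.87 (adjusted p = 0.305)); SAG101 stands on this list as well. Of 15 tested cell wall growth genes of 16, XTH24 was the call and XTH22 (2.1 ± 0.58 (adjusted p = 0.228)) and XTH4 (1.00 ± 0.39 (adjusted p = 0.351)) followed, at a median of 0.22.

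Apart from root-type uptake, the lowest medians of the pathway lists were those of photosystem II and its antenna, -0.23, and sulfur, -0.20. All 22 photosystem II genes were tested, all lay below the all-gene median of 0.14, none was called and 2 were negative at an unadjusted p under 0.05. LHCB2.4 had 215 and 261 FPKM in double deficiency, 325 and 420.0 in iron deficiency, 2114 and 2300.1 in copper deficiency and 2051 and 1911 in control leaves. The 4 iron-starved libraries were far below the others and double deficiency lay below iron deficiency (-0.79 ± 0.23 (adjusted p = 0.243)). LHCB4.3 had -0.92 ± 0.32 (adjusted p = 0.312). In sulfur, 13 of 15 genes were tested and 3 were negative at an unadjusted p under 0.05, none called. LSU1, a marker of sulfur shortage, had 3.98 and 5.51 FPKM in double deficiency, 15.8 and 16.6 in iron deficiency, 23.8 and 18.6 in copper deficiency and 40.3 and 23.1 in control leaves. Here the interaction was -1.08 ± 0.39 (adjusted p = 0.322). SULTR4;2, a vacuolar sulfate exporter, had 5.82 and 4.23 FPKM in double deficiency, 9.95 and 9.28 in iron deficiency, 5.42 and 4.75 in copper deficiency and 5.48 and 4.8 in control leaves. Iron deficiency was the highest group and the other 3 overlapped (-0.82 ± 0.24 (adjusted p = 0.248)). SULTR3;1 had -0.63 ± 0.20 (adjusted p = 0.27). The remaining lists held no called gene, and their medians ran between -0.16 in sugar and starch and 0.34 in ribosome biogenesis.

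**Figure D5:**
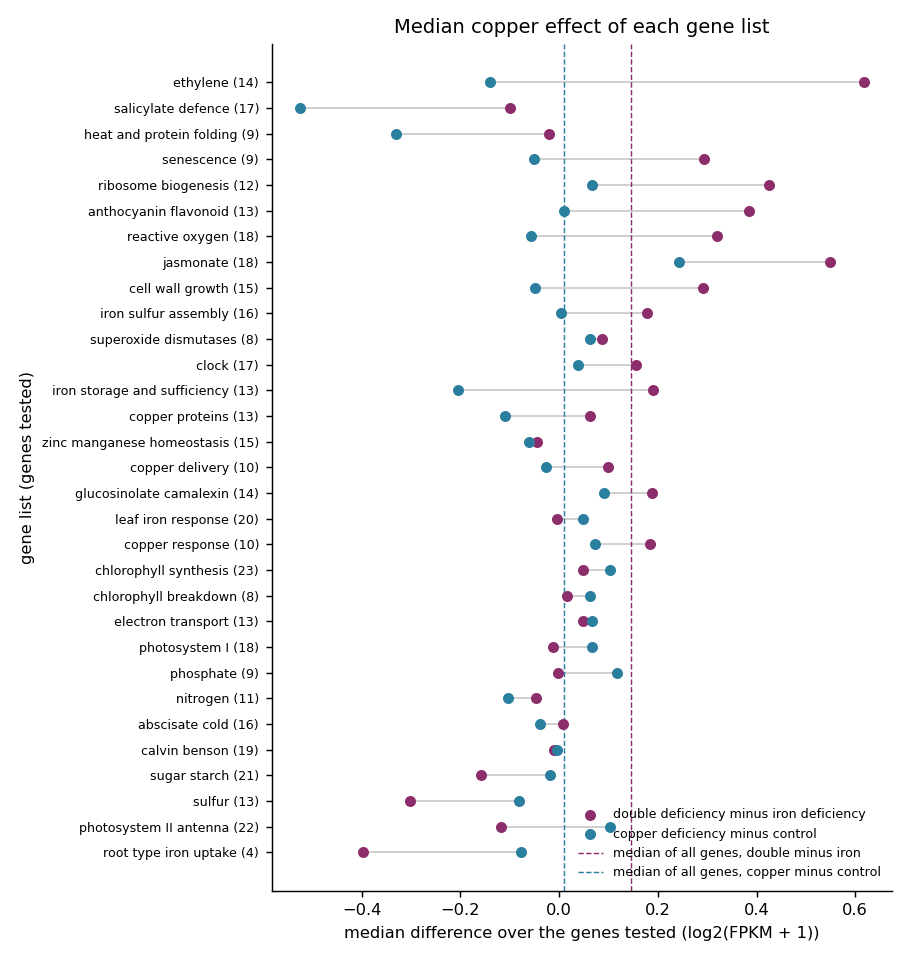
Median copper effect of each gene list without iron (double deficiency minus iron deficiency) and with iron (copper deficiency minus control), in log2(FPKM + 1), with the number of genes tested in brackets; dashed lines give the medians of all genes tested, 0.15 and 0.01. Ethylene genes show the widest gap, 0.62 without iron and -0.14 with iron, and the lists at the bottom have the lower value without iron.

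Of 8 marker lists, phloem companion cells had the only called gene, SUC2, and the lowest median. Guard cell markers summed to 1590.3 and 1585 FPKM in double deficiency, 2045 and 2378 in iron deficiency, 3176 and 3038 in copper deficiency, and 2607 and 2301 in control leaves. TGG1 alone made up 1024 and 1035 FPKM of these sums in double deficiency and 2025 and 2115 in copper deficiency. Over the 7 guard cell markers tested, the median difference of double from copper deficiency was 0.11, against 0.41 over all genes tested. The median interaction of these 7 was -0.14, with 2 negative at an unadjusted p under 0.05. Dividing cell markers summed to 145 and 144 FPKM in double deficiency and to 76.3 to 109.9 FPKM in the other 6 libraries, with a median of 0.51 over 6 genes, and trichome markers had 0.71 over 3. Flower markers summed to 18.7 and 19 FPKM in double deficiency, 11 and 13.1 in iron deficiency, 1.29 and 2.83 in copper deficiency, and 2.88 and 1.48 in control leaves. Xylem and epidermis markers had medians of -0.02 and 0.04. Root markers summed to at most 1.34 FPKM in any library and none was tested. The part of cell type shares in the called genes was not tested.

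The promoters of the positive called genes were searched for short motifs on both strands in the 250 bases before the gene start. TTGACT, the core of the W-box that WRKY factors bind, stood in 10 of 31 (32.3%), against 18.4% of the 16811 promoters, and TTGACC in 4 of 31 (12.9%), against 11.8%. CGCGT, part of the CGCG box bound by calmodulin-binding CAMTA factors, stood in 6 of 31 (19.4%), against 7.42%. It also stood in 2 of the 3 promoters of the negative called genes (66.7%), so it was not particular to the positive ones. Of 128 promoters of genes called higher for double against iron deficiency, 16 (12.5%) held it. CACGTG, the G-box, stood in 2 of 31 (6.45%), against 7.5%, and AGCCGCC, the GCC box of ERF factors, in none, against 0.595%. None of these shares was tested. Those of BCB (chr5:6826115-6826364, plus strand) and ZAT12 (chr5:24102564-24102813, plus strand) are shown because both hold CGCGT, on the opposite strand and in capitals, 47 and 45 bases before the start:
BCB promoter: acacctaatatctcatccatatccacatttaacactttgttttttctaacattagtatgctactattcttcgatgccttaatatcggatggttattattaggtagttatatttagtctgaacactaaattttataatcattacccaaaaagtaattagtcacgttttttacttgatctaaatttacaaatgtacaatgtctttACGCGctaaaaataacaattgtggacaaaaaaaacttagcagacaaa
ZAT12 promoter: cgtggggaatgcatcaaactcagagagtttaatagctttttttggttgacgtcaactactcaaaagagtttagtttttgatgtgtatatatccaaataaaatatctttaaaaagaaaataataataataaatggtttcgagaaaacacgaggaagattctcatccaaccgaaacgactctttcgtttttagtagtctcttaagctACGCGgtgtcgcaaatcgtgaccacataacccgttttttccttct
The BCB promoter also holds GTAC, left in small letters, which stood in 34.7% of the 16811 promoters. A match describes these letters and is not evidence of binding.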

How the data were processed

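Rosette RNA sequencing libraries, unstranded, were processed by the authors to FPKM per gene with lower and upper bounds. Tools named in the submitters' processing notes are TopHat2 2.1.1, Trimmomatic, Cuffdiff and Cufflinks, and the deposited FPKM are not stated to be scaled between libraries. No genome build is given in the sources used here; 99.2% of identifiers were found in RefSeq TAIR10.1, 99.9% of them at the same position once the 0-based starts were converted. Blank rows and 1 entry with a failed status were dropped. Genes with 1 FPKM or more in at least 2 libraries (19170) were fitted as log2(FPKM + 1) with limma 3.58.1 in R 4.3.3 (lmFit and eBayes with a trend, all 4 groups in 1 model, 4 residual degrees of freedom), which was tested on simulated data. P-values were adjusted over all 19170 genes by Benjamini-Hochberg, and those under 0.05 called; differences on this scale understate low genes. Named genes were the 10 highest and lowest interactions (places left in the negative direction filled by lowest p) with a group mean of at least 5 FPKM, a fixed panel of 22, and 2 to 4 members of lowest p of each described list. Of 515 list entries, 514 matched an identifier. Lists described are those with a call, the copper and iron lists and the 3 highest and lowest medians. Members and lists were chosen with earlier results of these data known. Alternatives are given in the closing section.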

Additional observations from a re-analysis of the deposited data

Results flagged for a closer look

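Each of the 34 called genes is listed here because its copper effect differed between leaves without and with iron by the test of that difference itself, the limma interaction term at an adjusted p under 0.05. Groups hold 2 libraries, so no search for single libraries far from their group was made. The 31 positive log2 interactions were, in falling order, BCB 3.11, AT1G36622 2.61, AT2G25735 2.59, AT3G22600 2.53, AT3G21460 2.48, HSPRO2 2.34, AT1G72060 2.30, ORA47 2.22, PCR2 2.16, AT3G62930 2.07, then ZAT10 2.06, UGT85A1 2.05, AT5G21940 2.02, OXS3 2.01, TEM1 2.00, GASA1 1.90, ZAT12 1.82, AT1G32920 1.70, ZAT6 1.68, AT1G22890 1.67, and then AT2G18600 1.59, XTH24 1.53, NUDT21 1.47, SYP122 1.45, AT1G23390 1.44, AT5G03120 1.25, AT3G10020 1.21, AT1G68440 1.12, NHL3 1.07, AGP15 0.98 and NOI 0.75. The 3 negative ones were SUC2 -1.12, AT4G13100 -1.13 and ZIP4 -2.01.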

How the results depend on the processing

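Main counts were 34 interaction calls, 141 calls for double against iron deficiency and 0 for copper deficiency against control. In the same order of the first pair, a pseudocount of 0.1 gave 19 and 115, a pseudocount of 5 gave 38 and 263, no filter 11 and 81, a filter at 5 FPKM 18 and 130, and a fit over the 17242 genes alone 116 and 748; 33 of the 34 remained in the last. Blocking by replicate number gave 12 and 69, with 8 of the 34 shared; none of the 3 negative genes was among its calls (adjusted p = 0.0514 in ZIP4, 0.0644 in AT4G13100 and 0.089 in SUC2). Blocking by the letter in the library titles gave 1 and 9. Same-numbered libraries deviated together at correlations of 0.0888 to 0.195 over 6 pairs of groups, and as 2 numbers cannot settle it they were taken to share only a number. Leaving out 1 library gave 1 to 29, 3 to 102 and 0 to 7. Median-ratio, nuclear-coding and quantile scaling and a prior without trend gave 25, 27, 28 and 24 interaction calls. No called gene reversed in any alternative. Reversed estimates, all of uncalled genes, were: with a pseudocount of 0.1 BHLH39 -0.11; with a pseudocount of 5 IMA2 0.12; after median-ratio scaling PETE1 -0.066, COPT2 -0.079, BHLH39 -0.10, AHA2 -0.047, ILR3 -0.036; scaled to nuclear protein-coding genes PETE1 -0.0065, BHLH39 -0.026; after quantile normalization PETE2 0.046, PETE1 -0.11, COPT2 -0.072, BHLH39 -0.23, AHA2 -0.10, FRO7 -0.046, ILR3 -0.10; with the library letter as a block PETE2 0.18, FRO3 0.37, IMA2 0.41, BHLH100 0.22, BHLH39 -0.050, OPT3 0.052, AHA2 -0.015, NEET -0.085; on the linear scale, in FPKM, IMA2 183. Over fits without 1 library, the genes that reversed ranged as COPT2 -0.27 to 0.40, YSL2 -0.83 to 0.023, IMA1 -0.23 to 1.95, PETE2 -0.26 to 0.11, FRO3 -0.66 to 0.38, IMA2 -0.61 to 0.44, BHLH100 -1.23 to 0.072, BHLH39 -0.076 to 0.18, OPT3 -0.65 to 0.088, AHA2 -0.064 to 0.24, NEET -0.032 to 1.03, PETE1 -0.049 to 0.19. Causes were not tested. With 2 libraries a group, 4 residual degrees of freedom and unknown read totals, the counting error of low genes is not known.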
